A study of Mus musculus with 4 samples.

Results

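The genes described here are 10 mouse genes of endothelial cell junctions, *Cdh5*, *Pecam1*, *Cldn5*, *Esam*, *Jam2*, *Jam3*, *Tjp1*, *Ocln*, *Gja1*, and *Gja4*. They were chosen by their function, with earlier results of these data known, out of 21887 protein-coding genes in the annotation. For each gene, peaks of H3K27ac were collected in the gene body plus 10 kb on each side. A region was a run of overlapping peaks (at least 1 bp), and it was called shared when it held a peak of each of 2 libraries, C2 and C3. It was placed at a gene end when it came within 1 kb of either end of the gene, and was called distal otherwise. H3K27ac, an acetylated lysine of histone H3, marks active promoters and enhancers and was measured by ChIP-Seq.

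Both libraries came from mouse liver sinusoidal endothelial cells (LSECs) and form 1 condition, so no comparison between conditions and no test was possible. In the methods, LSECs were captured with beads against CD146, the product of *Mcam* and a surface protein of endothelial cells, plated for a short culture, and fixed with formaldehyde. The LSEC donors named there carried a conditional *Col4a1* allele (*Col4a1* fl/wt), that allele together with *Cdh5* CreERT2, or dCas9-KRAB together with *Cdh5* CreERT2. In the last 2 kinds of mice the *Cdh5* promoter, of a gene described here, drives the Cre. Which of these genotypes, and which strain, age, treatment, or number of mice stood behind C2 and C3, is not given in the sources used here. The methods describe a tagmentation-based library, whereas the sample records describe sonication. Each library has an input, which was not analysed here on its own.

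Endothelial cells are held together by adherens junctions built on VE-cadherin, by tight junctions built on claudins, occludin, and immunoglobulin-like adhesion molecules, and by gap junctions built on connexins. LSECs line the liver sinusoid, a capillary that is perforated by fenestrae and lacks a continuous basement membrane. Their contacts are known to be permeable compared with those of most other vessels.

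The C2 list held 26975 peaks and the C3 list 64498, so C3 had 2.39 times as many. The depth of the libraries is unknown, and fold enrichments over background, as the authors' caller gave them, are therefore set beside their percentile in their own list. Percentiles of the 2 lists are not on 1 scale. Over all 24199 shared regions, the median was at the 53.8th percentile of C2 and the 81.0th of C3. Of LSEC markers, 8 of 10 had a shared region at a gene end. The counts were 1 of 8 for hepatocyte, 0 of 8 for hepatic stellate cell, 0 of 7 for Kupffer cell, and 0 of 5 for cholangiocyte markers. In C3 alone they were 10, 3, 1, 0, and 1.

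Of the 10 junction genes, 8 had a shared region at a gene end, namely *Cdh5*, *Pecam1*, *Cldn5*, *Esam*, *Jam2*, *Jam3*, *Gja1*, and *Gja4*. Over all protein-coding genes the share was 44.1%. The same 8 genes had a gene-end peak in each library taken by itself, against 43.4% of all genes in C2 and 53.9% in C3. *Tjp1* and *Ocln* had none in either library. The count of 8 rests on an overlap of 1 bp. With a reciprocal overlap of at least 50% it was 2, *Gja4* and *Jam2*, and at *Cdh5*, *Esam*, and *Gja1* a single C3 peak covered 2 or 3 narrower C2 peaks. The share of all genes under that overlap was not computed, so the count of 2 cannot be set against 44.1%. At least 1 shared distal region was found at 9 of the 10 genes, against 39.3% of all genes, and *Cldn5* was the exception. The median length of the junction genes was 47.6 kb against 17.2 kb, and a longer window offers more room for distal regions. *Cldn5*, *Gja4*, *Esam*, and *Gja1* were shorter than 17.2 kb, at 1.42, 2.62, 10.2, and 13.1 kb. Per 10 kb of window, the median of shared distal regions was 0.523 in the junction genes and 0 over all genes. Whether length bears on the count of 9 was not tested.

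In all, the windows of the 10 genes held 130 regions. Of these, 47 were shared, 8 at gene ends and 39 distal, and 32 of the distal regions lay in the gene bodies. Another 81 had a peak in C3 only and 2 in C2 only. The split was similar in the complete lists, where 24199 of 64629 regions were shared, 40204 were in C3 only, and 226 in C2 only. Each of the 8 shared regions at a gene end overlapped that end. The distal region closest to an end lay 1007 bp from that of *Pecam1*, just past the 1 kb limit. In the plot of region counts, *Cdh5*, *Pecam1*, and *Tjp1* each carry 9 shared regions, while *Ocln* and *Cldn5* carry 1 each.

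**Figure D1:**
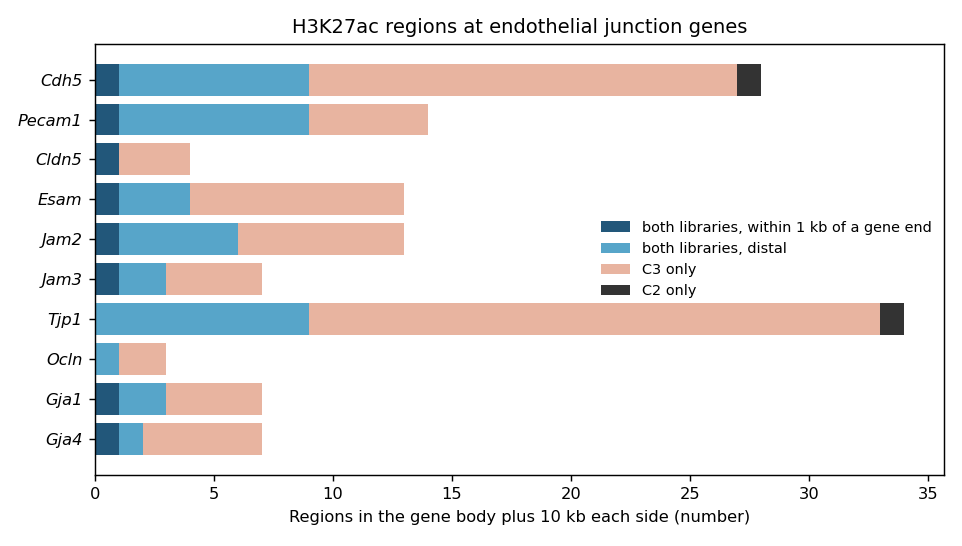
Number of H3K27ac regions in the gene body plus 10 kb on each side (horizontal axis) for each of the 10 junction genes, stacked by class. *Tjp1* has the most regions, 34, of which 24 are in C3 only, and the 8 genes with a dark blue segment each have 1 shared region at a gene end.

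Promoter sequences show where these peaks fall. The RefSeq promoter table (GRCm38.p6) held transcript starts for 5 of the 10 genes, *Cldn5*, *Tjp1*, *Ocln*, *Gja1*, and *Gja4*. Each promoter runs from 250 bases before to 50 bases after the start. They are printed because 4 of them lay under a peak of both libraries and that of *Ocln* under none. Of all 32851 promoters in the table, 29.8% were overlapped by a peak of both libraries. Capitals mark the GC box GGGCGG and the E-box CACCTG, each read on both strands. The positions are chr16:18776597-18776896 (plus strand) for *Cldn5*, chr10:56377050-56377349 (plus) for *Gja1*, chr4:127313990-127314289 (minus) for *Gja4*, chr7:65371195-65371494 (minus) for *Tjp1*, and chr13:100552669-100552968 (minus) for *Ocln*.
Cldn5: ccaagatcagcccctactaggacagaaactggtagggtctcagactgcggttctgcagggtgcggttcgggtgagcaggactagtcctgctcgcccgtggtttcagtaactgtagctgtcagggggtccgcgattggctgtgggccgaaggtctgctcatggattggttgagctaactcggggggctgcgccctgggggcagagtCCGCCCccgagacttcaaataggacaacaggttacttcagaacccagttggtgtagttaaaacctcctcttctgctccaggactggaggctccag
Gja1: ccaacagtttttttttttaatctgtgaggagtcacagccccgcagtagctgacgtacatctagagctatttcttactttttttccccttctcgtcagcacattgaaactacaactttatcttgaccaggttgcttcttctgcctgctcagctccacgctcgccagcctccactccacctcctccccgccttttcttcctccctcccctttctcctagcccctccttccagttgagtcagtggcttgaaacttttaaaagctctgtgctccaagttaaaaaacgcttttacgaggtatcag
Gja4: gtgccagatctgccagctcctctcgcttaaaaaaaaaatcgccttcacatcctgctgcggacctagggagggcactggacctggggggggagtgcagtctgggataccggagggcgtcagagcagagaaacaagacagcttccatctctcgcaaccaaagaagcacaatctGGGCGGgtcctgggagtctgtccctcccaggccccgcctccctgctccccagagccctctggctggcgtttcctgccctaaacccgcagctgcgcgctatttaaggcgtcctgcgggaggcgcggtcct
Tjp1: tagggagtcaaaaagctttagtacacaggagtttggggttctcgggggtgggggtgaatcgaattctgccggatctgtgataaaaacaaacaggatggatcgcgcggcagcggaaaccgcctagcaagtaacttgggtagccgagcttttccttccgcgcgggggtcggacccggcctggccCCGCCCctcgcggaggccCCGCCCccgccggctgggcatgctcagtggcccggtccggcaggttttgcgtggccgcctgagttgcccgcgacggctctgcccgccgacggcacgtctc
Ocln: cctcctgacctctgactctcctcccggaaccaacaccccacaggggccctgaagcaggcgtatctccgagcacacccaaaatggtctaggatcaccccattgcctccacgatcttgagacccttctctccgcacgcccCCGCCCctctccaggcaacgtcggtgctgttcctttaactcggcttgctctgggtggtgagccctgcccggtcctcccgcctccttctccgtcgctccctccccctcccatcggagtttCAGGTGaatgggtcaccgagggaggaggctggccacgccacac

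The GC box, a site of Sp and Kruppel-like factors, was present in 4 of these 5 promoters and in 35.7% of all promoters. *Gja1* was the promoter without it. The E-box CACCTG, which Snail and ZEB repressors can bind, was present in 1 of the 5, that of *Ocln*, and in 20.2% of all promoters. A start of *Ocln* 0.220 kb inside the first had a promoter that overlaps the printed one and also lay under no peak. It held 2 of these E-boxes, and the E-box of the printed promoter is among them. Whether the E-box bears on the absence of a peak was not tested. The ETS core GGAAG, shared by many endothelial genes, was found in 3 of 5 against 71.4%, and the KLF box CACCC in 3 of 5 against 57.5%. The SOX letters ACAAT were found in 1 of 5 against 31.0% and the GATA letters AGATAA in 1 of 5 against 11.2%. The FOX letters GTAAACA and the TATA box TATAAA were in 0 of 5, against 3.65% and 13.6%. These are matches of letters only, and a match is not a bound site. CpG dinucleotides numbered 12 in the *Cldn5* promoter, 8 in *Gja1*, 16 in *Gja4*, 31 in *Tjp1*, and 17 in *Ocln*, against a median of 7 over all promoters. The *Ocln* promoter thus lay within the range of the other 4.

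*Cdh5* encodes VE-cadherin, the transmembrane adhesion protein of endothelial adherens junctions. It spans 42.9 kb on chromosome 8, from 104101613 to 104144504. The peak at its lower end had a fold enrichment of 16.3 in C2 and 36.1 in C3, at the 75.0th and 86.4th percentiles. The summits lay 26 bp (C2) and 8 bp (C3) inside that end. The region was 2839 bp wide, its C3 peak was at the 99.8th percentile of width, and it held 2 separate C2 peaks. Another 8 shared regions were distal, 7 of them in the gene body. The strongest in C3 was 19.7 kb inside the lower end, at 104121280 to 104122605, with values of 34.1 in C2 and 60.3 in C3. The strongest in C2 lay 13.5 kb inside, at 104115079 to 104117350, with 36.0 in C2 and 28.1 in C3. A further region, 8.77 kb inside, had 20.7 and 54.0. Values above that of the gene end were found at 4 distal regions in C2 and at 2 in C3. The 7 body regions began between 8.77 and 28.0 kb from the lower end, and no shared region lay in the remainder toward the higher end. C3 added 18 regions with values of 2.89 to 9.77.

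*Pecam1* encodes CD31, an immunoglobulin-like adhesion molecule at the contacts of endothelial cells. It spans 61.1 kb on chromosome 11, from 106654213 to 106715281. The peak at its higher end had 13.6 in C2 and 13.0 in C3, at the 67.0th and 63.4th percentiles. It was the only gene end among the 8 with no higher value in C3 than in C2. Its 8 distal regions ranged from 5.42 to 14.9 in C2 and from 5.21 to 23.3 in C3. Of these, 5 lay within 10.2 kb of the higher end, inside or outside the gene, and 3 began between 5.26 and 20.2 kb from the lower end. The strongest in C3 was 9.47 kb from the lower end, with 14.9 in C2 and 23.3 in C3. Compared with *Cdh5*, *Pecam1* had the same number of shared regions but no region above the 78.1st percentile of C3.

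**Figure D2:**
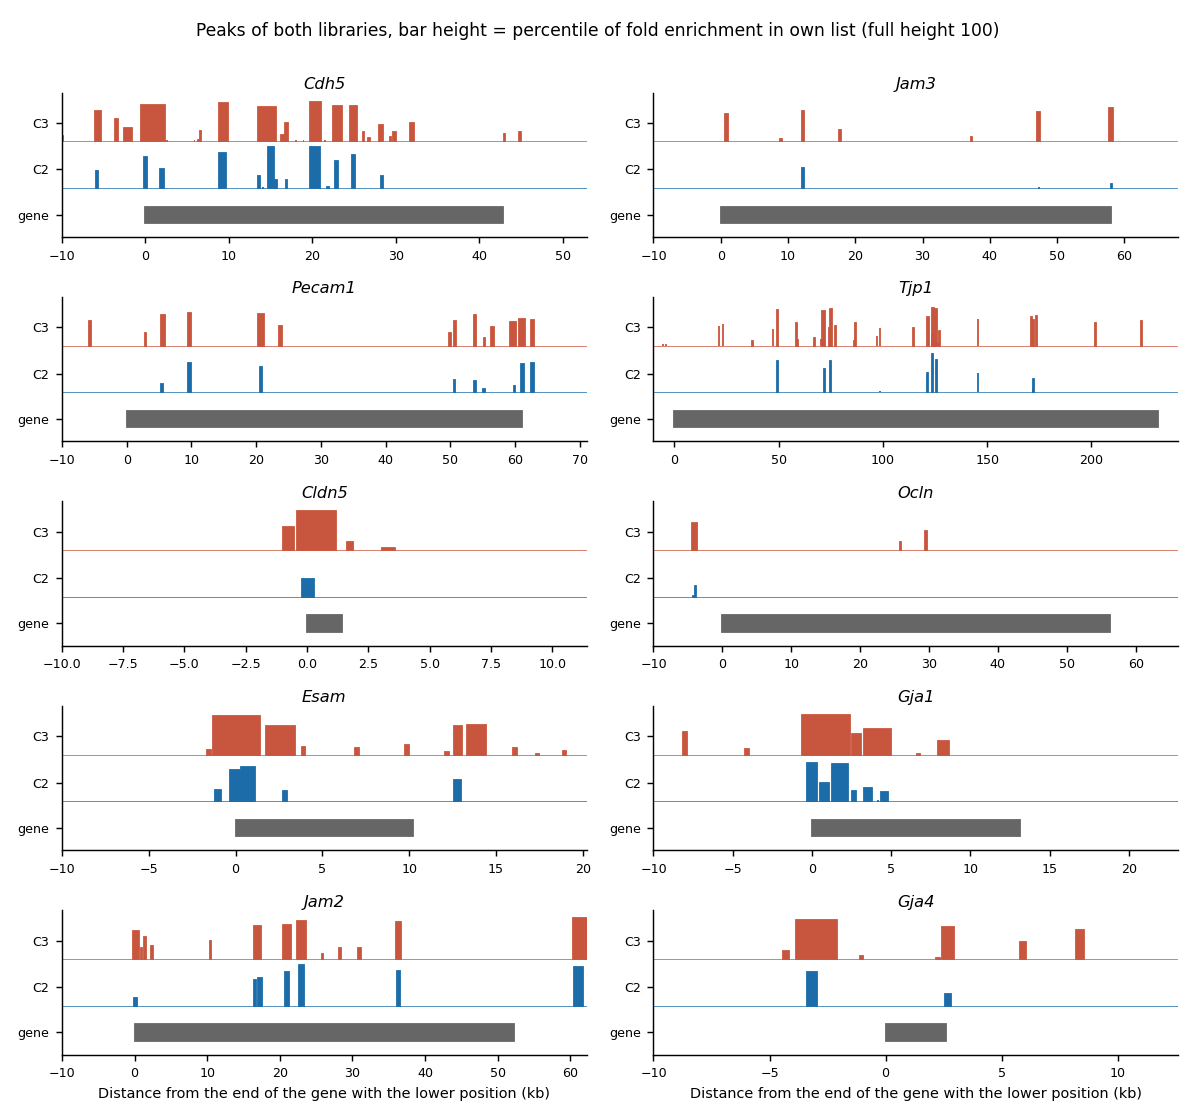
Peaks of C2 (blue) and C3 (red) along each junction gene, as distance in kb from the end with the lower position (horizontal axes differ between genes), with the gene body in grey. Bar height is the percentile of the peak's fold enrichment in its own list, and *Cdh5* and *Jam2* show tall bars of both libraries inside the gene, while *Ocln* has bars of both libraries only outside it.

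*Cldn5* encodes claudin-5, the main claudin of endothelial tight junctions. The gene is 1.42 kb long and lies on chromosome 16, from 18776847 to 18778262. It had 1 shared region, over the promoter printed above, with a fold enrichment of 8.68 in C2 and 64.4 in C3. These values were at the 41.7th percentile of C2 and the 94.9th of C3. The medians of all shared regions were at the 53.8th and 81.0th, so this promoter lay below the median in C2 and above it in C3. The summits lay at -78 bp in C2 and -47 bp in C3 from the transcript start. The region was 1583 bp wide and covered most of the gene. The other 3 regions were in C3 only, with 4.13 to 10.1, and the window held no shared distal region.

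*Ocln* encodes occludin, a membrane protein of tight junctions that is typical of tight epithelia and of the blood-brain barrier. It spans 56.2 kb on chromosome 13, from 100496504 to 100552718, and had 2 peaks in C2 and 3 in C3, the latter the fewest of the 10 genes. Its only shared region lay 3.67 kb outside the lower end and within 1 kb of an end of *Gtf2h2*, a neighbouring gene for a subunit of general transcription factor TFIIH. That region had 6.78 in C2 and 13.6 in C3. In the body of *Ocln*, C2 had 0 peaks and C3 had 2, with values of 5.21 and 8.14. Mark below the threshold of the caller is not visible in such lists.

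*Tjp1* encodes ZO-1, the cytoplasmic scaffold that ties claudins, occludin, and JAM proteins to actin. Its annotated body of 232 kb on chromosome 7, from 65296165 to 65527850, had no peak within 1 kb of an outer end. The transcript start of the promoter table lies 157 kb inside the outer 5′ end, and the promoter printed above was covered there by a shared region at 65370696 to 65371891. Its values were 16.3 in C2 and 39.4 in C3, at the 75.0th and 87.8th percentiles, with summits at -33 and -26 bp from that start. By the rule this region counts as distal. When transcript starts of the promoter table were also counted as gene ends, an alternative chosen after the values were seen, *Tjp1* joined the other 8 genes, making 9 of 10 against 46.8% of all genes. The strongest *Tjp1* region in both libraries lay at 65419487 to 65420478, upstream of that start on the minus strand and within the long annotated body, with 26.2 in C2 and 48.7 in C3. Next to it, at 65421168 to 65421939, a further region had 17.6 and 37.3. *Tjp1* had 24 regions in C3 only, with values of 3.26 to 16.8.

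*Esam*, *Jam2*, and *Jam3* encode immunoglobulin-like adhesion molecules of endothelial contacts, ESAM, JAM-B, and JAM-C. *Esam* (10.2 kb, chromosome 9, 37528089 to 37538319) had a gene-end region of 2703 bp with 19.7 in C2 and 53.7 in C3, at the 82.5th and 92.6th percentiles. The region held 3 separate C2 peaks under 1 C3 peak and reached to within 1 kb of an end of *Msantd2*, so the acetylation cannot be assigned to *Esam* alone. The summits of both libraries lay 652 and 653 bp inside the lower end of *Esam*. A distal region below the lower end, at 37517042 to 37518090, had 20.1 and 61.5 but touched the window only at its edge. The other distal regions had 6.78 and 16.0 in the gene body, and 10.2 and 15.7 beyond the higher end.

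*Jam2* (52.3 kb, chromosome 16, 84774123 to 84826380) had a weak gene end and strong regions in its body. The gene-end region had 6.13 in C2 and 14.6 in C3, at the 19.4th and 66.9th percentiles. The 4 body regions began 16.4 to 36.0 kb inside the lower end. Their values ranged from 13.4 to 33.2 in C2 and from 23.5 to 47.4 in C3, so each exceeded the gene end in both libraries. The strongest of them, at 84796456 to 84797694, was at the 96.3rd percentile of C2 and the 90.8th of C3, and the summits of both libraries fell on the same base. The highest C3 value in the window, 79.4, with 27.5 in C2, belonged to a region within 1 kb of ends of *Atp5j*, a subunit gene of mitochondrial ATP synthase, and *Gabpa*, an ETS factor gene.

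*Jam3* (58.0 kb, chromosome 9, 27097384 to 27155421) had the lowest gene-end value of C2. Its higher end carried a region with 5.49 in C2 and 27 in C3, at the 10.2nd and 81.0th percentiles. Of its 2 distal regions, that 12.0 kb inside the lower end had 9.47 and 18.0, and that 47.0 kb inside had 4.6 and 16.0. At its lower end C3 alone had a peak, with 13.7. With peaks of a q-value of 1e-05 or less, *Jam3* lost its shared gene-end region and kept 1 shared region in all.

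*Gja1* and *Gja4* encode connexin 43 and connexin 37, the channel proteins of endothelial gap junctions. *Gja1* (13.1 kb, chromosome 10, 56377300 to 56390419) had the highest gene-end values of the 10 genes in both libraries, 27.1 in C2 and 70.8 in C3, at the 92.4th and 95.9th percentiles. The region was 3017 bp wide, held 3 C2 peaks under 1 C3 peak, and that C3 peak was at the 99.8th percentile of width. The summits lay at -62 bp in C2 and -83 bp in C3. The 2 distal regions followed directly, 2.49 and 3.29 kb into the gene, with 6.78 and 8.84 in the first and 7.46 and 12.1 in the second.

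*Gja4* (2.62 kb, chromosome 4, 127311420 to 127314039) showed the opposite arrangement. Its promoter region had 6.98 in C2 and 20.8 in C3, at the 27.8th and 75.7th percentiles, and both summits lay at -54 bp from the transcript start. A distal region 2.10 kb beyond the other end of the gene, at 127307552 to 127309325, had 19.0 and 55.7, at the 81.1st and 93.1st percentiles. This region lies downstream of *Gja4*, and no end of another annotated gene lay within 1 kb of it. Of the 5 regions in C3 only, the strongest had 16.0.

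**Figure D3:**
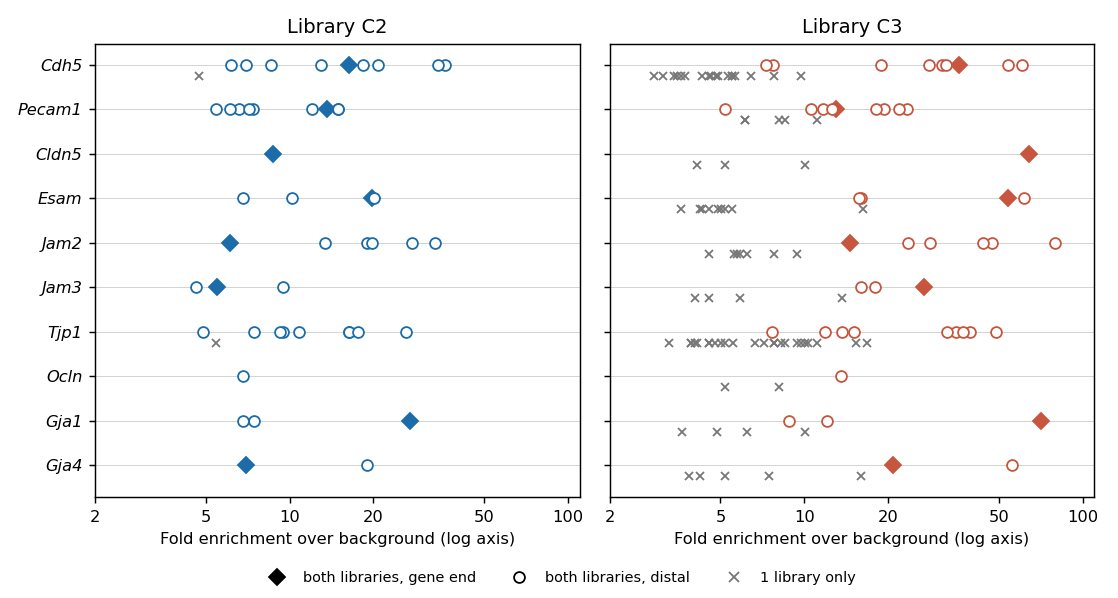
Fold enrichment over background (log axis) of each region in C2 (left) and C3 (right) for the 10 junction genes. Filled diamonds are shared regions at a gene end, open circles shared distal regions, and grey crosses, drawn slightly lower, regions of 1 library, which in C3 reach at most 16.8.

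Across the 8 genes with a gene-end region, the order from high to low in C3 was *Gja1* (70.8), *Cldn5* (64.4), *Esam* (53.7), *Cdh5* (36.1), *Jam3* (27), *Gja4* (20.8), *Jam2* (14.6), and *Pecam1* (13.0). In C2 it was *Gja1* (27.1), *Esam* (19.7), *Cdh5* (16.3), *Pecam1* (13.6), *Cldn5* (8.68), *Gja4* (6.98), *Jam2* (6.13), and *Jam3* (5.49). Both libraries put *Gja1* first, *Esam* above *Cdh5*, and *Cdh5* above *Gja4* and *Jam2*, whereas the places of *Cldn5*, *Pecam1*, and *Jam3* differed between the libraries. With 1 value per library, the order of neighbours was not tested. Of the 7 genes with shared regions of both kinds, 5 had their strongest C3 value in a distal region. Over the 5432 protein-coding genes with both kinds, this share was 40.0%. The 5 genes were *Cdh5*, *Pecam1*, *Esam*, *Jam2*, and *Gja4*, and at *Esam* and *Jam2* the region in question lay at the window edge or at ends of other genes. A highest value favours the kind with more regions, and each of the 7 genes had 1 shared gene-end region against 1 to 8 distal ones. Over all 10 genes, the median values of the 39 distal and 8 gene-end regions were 19.3 and 31.6 in C3, and 10.8 and 11.1 in C2.

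The share of each window covered by shared regions gave 3 levels. It was 17.2% for *Cdh5*, 16.2% for *Esam*, and 15.9% for *Gja1*, each above the 99th percentile of all protein-coding genes. It was 10.1% for *Gja4*, 9.26% for *Jam2*, 7.39% for *Cldn5*, and 7.0% for *Pecam1*, between the 90.3rd and 96.1st percentiles. It was 2.62% for *Tjp1*, 1.89% for *Jam3*, and 0.890% for *Ocln*, the last at the 46.8th percentile. All shared bases of *Ocln* lay in the region near an end of *Gtf2h2*. The share of *Jam2* includes the region near ends of *Atp5j* and *Gabpa*, and that of *Esam* the region near an end of *Msantd2*. The median of the 10 genes was 8.33%, against 1.20% over all genes. Counted from the peaks of each library alone, *Cdh5*, *Esam*, and *Gja1* had 9.18%, 7.56%, and 10.8% in C2 and 24.6%, 25.3%, and 19.9% in C3. These 3 genes were the highest in both libraries, but their order among themselves was not the same. *Ocln* was the lowest in both, with 0.440% and 1.52%.

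Summits of the 2 libraries lay close together in shared regions, which the overlap that defines such a region favours. The median peak width was 322 bp in C2 and 345 bp in C3, and summit distances over all shared regions were not computed. In the 47 shared regions, the summits of C2 and C3 were a median of 28 bp apart, and 40 pairs lay within 100 bp. The 2 pairs over 500 bp apart were in *Jam2* (679 bp) and *Gja1* (939 bp), each where C2 had more than 1 peak under a single C3 peak. Fold enrichment was higher in C3 at 43 of the 47 regions, with medians of 10.8 in C2 and 21.8 in C3. Over all 24199 shared regions of the libraries the medians were 10.5 and 27. Spearman's rho between the libraries was 0.780 over the 47 regions and 0.843 over all shared regions, as a description of regions that come from the same pair of libraries. The 81 regions in C3 only had a median of 5.50, at the 22.9th percentile of C3, against the 76.7th for the shared regions. Over the whole lists, 40204 of 64629 regions were in C3 only, with a median of 6.20 at the 31.9th percentile, against the 81.0th for shared regions. All 81 were at or below 16.8, and 42 of them exceeded the weakest shared region in C3. Regions in C3 only and shared regions thus do not separate at a single C3 value.

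**Figure D4:**
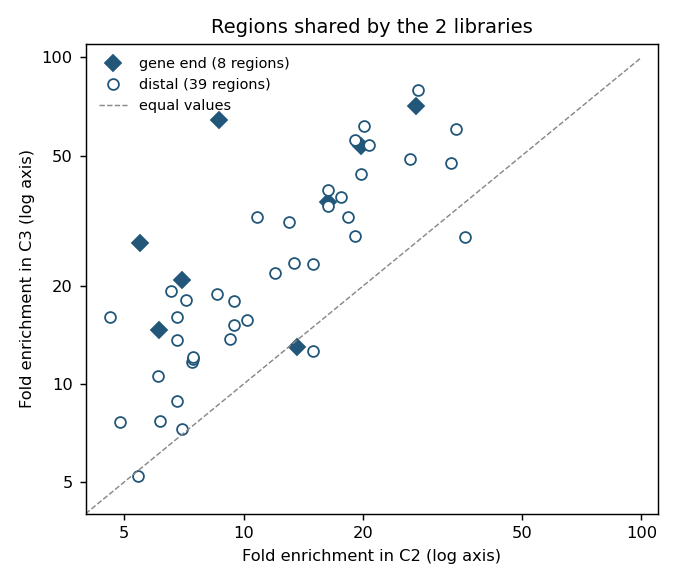
Fold enrichment in C2 (horizontal, log axis) against C3 (vertical, log axis) for the 47 shared regions of the junction genes, with 8 gene-end regions as filled diamonds and 39 distal regions as open circles. Of these points, 43 lie above the dashed line of equal values, and Spearman's rho is 0.780.

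Other genes of cell junctions were read by the same rule in 5 lists. Among partners of adherens junctions, 7 of 10 had a shared region at a gene end. *Nectin3*, a nectin adhesion molecule, had 26.2 in C2 and 62.2 in C3. *Nectin2* had 43.4 and 127, in a region that also reached an end of *Tomm40*. No gene-end peak was found at *Ctnnd1*, which encodes p120-catenin, at *Cdh2*, which encodes N-cadherin, or at *Cdh13*, which encodes T-cadherin. *Ctnnd1* and *Cdh13* had 4 and 5 shared distal regions, and *Cdh2* had 0.

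Among tight junction partners, 6 of 10 had a shared region at a gene end. *Magi1*, a scaffold gene, had 15.6 and 58.9. *Cgnl1* (paracingulin), *Amotl1* (angiomotin-like 1), and the polarity gene *Pard3* had no gene-end peak, although *Cgnl1* and *Amotl1* had 9 shared distal regions each. When transcript starts of the promoter table were added to the gene ends, the counts were 8 of 10 in both lists, against 46.8% of all genes. This alternative was chosen after the values were seen.

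Of the 7 other connexin and pannexin genes, 1 had a shared region at a gene end, *Panx1*, with 8.54 in C2 and 13.6 in C3. *Gja5* (connexin 40, known from arterial endothelium), *Gja3*, *Gjb2*, and *Gjb1* (connexins 46, 26, and 32) had no gene-end peak in either library. *Gja5* and *Gjb1* had 1 shared distal region each, and *Gja3* and *Gjb2* had 0. *Gjb1* and *Gjb2* are the connexins of hepatocytes.

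Of 6 other endothelial contact molecules, 3 had a shared region at a gene end. *Cd99l2* had 14.9 and 41.4. *Cd34* had 25.7 in C3, and its C2 peak lay in the same region but more than 1 kb from the gene end. *Icam2* and *Emcn* (endomucin) had no gene-end peak. Of 14 epithelial junction genes, 1 had a shared region at a gene end, *Tjp3*, with 44.1 and 106, in regions that also reached an end of *Pip5k1c*. *Pkp2* (plakophilin 2) had 9.77 in C3 only. Over the first 4 lists the count was 17 of 33, and over all 5 lists it was 18 of 47. These stand against 44.1% of all genes and 8 of 10 of the junction genes described above. The difference between these lists was not tested, and the lists were chosen with earlier results of these data known.

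**Figure D5:**
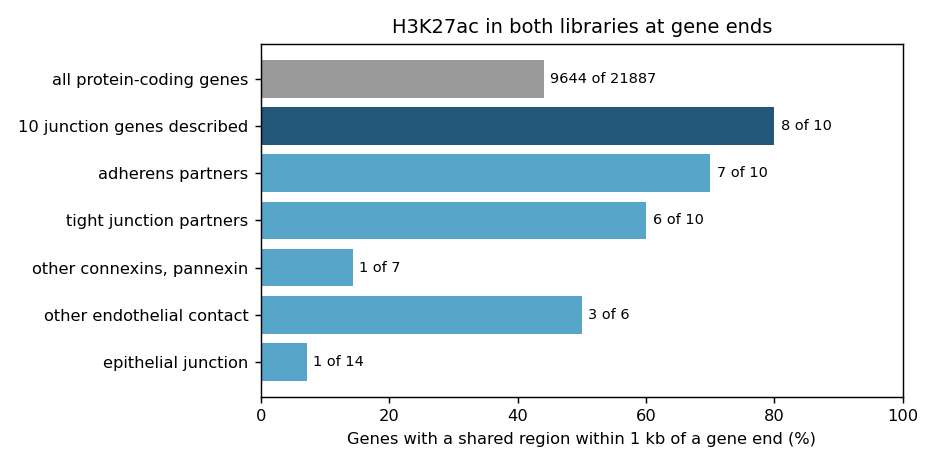
Percentage of genes with a shared H3K27ac region within 1 kb of a gene end (horizontal axis, from 0) for all protein-coding genes, the 10 junction genes, and 5 lists of other junction genes, with the counts beside the bars. The bar of the 10 genes (8 of 10) is the longest and that of the epithelial genes (1 of 14) the shortest.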

How the data were processed

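H3K27ac was profiled in 2 LSEC libraries, C2 and C3 (replicates 2 and 3 by their names). The authors deposited 1 peak list per library, with replicates not pooled. Per the labels, the submitters' processing notes name cutadapt 0.4.4, BWA 0.7.17, Picard 1.67, MACS2 2.0.10, bedtools 2.27.1, and the build mm10 (GRCm38). The deposited columns are a score, a fold enrichment (ratio to background), and the −log10 of the p-value and of the q-value. The score is the −log10 q times 10, cut to a whole number. Whether the inputs served as controls, and the depth of the libraries, are not given in the sources used here. The largest q-value was 0.00907 in C2 and 0.00981 in C3.

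Positions are counted from 1. Peaks of both lists that overlapped by at least 1 bp were merged into regions, which keep the highest fold enrichment of each library. Gene bodies and neighbours came from the RefSeq table of GRCm38.p6, in which 10 of 10 genes and the genes of all lists matched by symbol. It gives no strand, so either gene end counted. Strand came from the promoter table, which held 5 of the 10 genes. Percentiles are ranks within a list, and gene percentiles are over all protein-coding genes. The counting was checked on planted peaks, all of which were recovered.

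The genes named are the 10 junction genes, the 2 with the highest gene-end value in C3 from each other list, genes of a list without a gene-end peak where these are 5 or fewer, and neighbours with an end within 1 kb of a region. Some genes that this rule names are not reported here. The genes and lists were chosen with earlier results of these data known. No test was run, as the libraries form 1 condition. Alternatives changed the q-value, the number of peaks, the overlap, the windows, and the libraries used. Regions were built with pandas 2.3.3 and numpy 2.4.6 under Python 3.11.15, ranks came from scipy 1.17.1, and plots from matplotlib 3.10.9.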

Additional observations from a re-analysis of the deposited data

How the results depend on the processing

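No paired analysis was possible because the 2 libraries form 1 condition and the inputs with the same numbers were not analysed here. Over 14 summary results and 88 alternatives, 69 stayed within a set limit and 19 moved. The limit was 1.5 times for a count, 5 percentile points for a rank, and 6.49 percentage points for the covered share. The last is the standard deviation of the 2 single-library shares, so it is a weak check on those 2 values. Counts in 1 condition have no direction, so reversals were not assessed. Why a value moved was not tested beyond what an alternative removes by its construction. Counting annotated starts as gene ends, and requiring both peaks inside the window, were alternatives chosen after seeing the data.

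A reciprocal overlap of at least 50%, under which a wide C3 peak and the narrow C2 peaks beneath it no longer pair, moved 10 of these results. The number of junction genes with a shared gene-end region went from 8 to 2 (*Gja4* and *Jam2*), shared regions from 47 to 22 (distal 39 to 20, gene end 8 to 2), regions of 1 library from 83 to 146, and the median covered share from 8.33% to 1.30%. Values over all protein-coding genes were not computed under this overlap. The other junction genes went from 18 to 7 of 47, with 3 adherens partners, 1 tight junction partner, and 1 other endothelial contact molecule. With transcript starts of the promoter table alone as gene ends, known for 5 of the 10 genes and for *Tjp1* inside its annotated body, 4 junction genes and 0 other connexins counted. With 2.5 kb in place of 1 kb, gene-end regions numbered 14. With C3 reduced to its 26975 strongest peaks, the number in C2, regions of 1 library fell to 13.

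Read from a single library, the junction genes with a gene-end peak stayed at 8 of 10. Regions ranged from 60 (without replicate 3) to 129 (without replicate 2), distal ones from 49 to 113, gene-end ones from 11 to 16, and the covered share from 3.39% to 12.6%. Other junction genes with a gene-end peak numbered 16 of 47 in C2 and 25 of 47 in C3, against 43.4% and 53.9% of all genes. Epithelial ones ranged from 1 to 4 of 14 and other connexins from 1 to 3 of 7, with the higher value without replicate 2. The lists hold no read counts, so the absence of a peak is not an absence of the mark.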
